A study of Homo sapiens with 38 samples.

Results

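The genes described here are 9 mitotic kinases, AURKA, AURKB, PLK1, BUB1, BUB1B, TTK, NEK2, MELK and PBK, together with TPX2, the protein that activates AURKA on the spindle. They were taken by symbol from the expression table, which held each of the 10 once among 25504 genes. All 10 belonged to the 10865 genes called expressed, whose FPKM averaged 1 or more across the 8 libraries. TTK met that limit through the day 30 libraries alone.

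RNA was sequenced from RKO, a human colorectal cancer cell line, after treatment with DMSO as the vehicle, NCD38, NCD38-β2P4 or NCD38-β2PIPP, collected on day 30 or on day 4. NCD38 inhibits the histone demethylase LSD1 (KDM1A). In the 2 conjugates it is joined to a pyrrole-imidazole polyamide, a ligand of the DNA minor groove, so that the question of the study was whether the attached polyamide redirects the inhibitor. P4 is made of pyrrole units only, whereas PIPP carries 1 imidazole in place of a pyrrole. Inhibitors were given at 2 μM according to the sample labels (the methods print another unit for day 4), DMSO was added to all cultures, and each of the 8 conditions was a single library. Nothing in the labels tells whether the days shared a culture or a sequencing run, so day and any such batch cannot be told apart.

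Mitotic kinases are made mainly in G2 and M phase and are destroyed or silenced as cells leave mitosis. PLK1 and AURKA drive centrosome maturation and mitotic entry, AURKB acts at chromosomes and the midzone as the catalytic subunit of the chromosomal passenger complex, and TTK, BUB1 and BUB1B run the spindle assembly checkpoint. Their promoters are typically bound by the DREAM complex in resting cells and by MYBL2 and FOXM1 in dividing cells, through the cell cycle genes homology region (CHR) and CCAAT boxes. In a bulk library, fewer cells in mitosis and less RNA per cell cannot be told apart.

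Promoters were searched for short sequence words because 10 of 10 genes were higher with NCD38 than with DMSO on day 30, as were 59.0% of expressed genes. Whether the words have a part in that direction was not tested. Sequences are shown for the 4 genes with a match. The reference table held a promoter for 6 of the 10 genes, AURKB, PLK1, BUB1, BUB1B, NEK2 and MELK. The last 100 bases before the RefSeq transcription start on GRCh38.p14 were searched on both strands for TTTGAA and TTCGAA, the core letters of the CHR, and for CCAAT, which reads ATTGG on the other strand. The matches do not overlap each other in the printed windows. A CHR word was found for PLK1 and BUB1B, and a CCAAT word for PLK1, BUB1 and NEK2. AURKB, which had 2 entries, and MELK held neither word. Among 35116 promoter windows of the same length, 4.92% held a CHR word, 18.1% a CCAAT word and 0.988% both. Capitals mark the matched letters, written 5′ to 3′ on the strand of the gene.
PLK1 (chr16:23678789-23678888, plus strand): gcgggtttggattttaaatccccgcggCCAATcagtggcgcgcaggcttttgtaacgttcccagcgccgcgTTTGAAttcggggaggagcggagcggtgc
BUB1B (chr15:40160969-40161068, plus strand): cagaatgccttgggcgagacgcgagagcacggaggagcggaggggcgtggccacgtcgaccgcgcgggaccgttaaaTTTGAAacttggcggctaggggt
BUB1 (chr2:110678064-110678163, minus strand): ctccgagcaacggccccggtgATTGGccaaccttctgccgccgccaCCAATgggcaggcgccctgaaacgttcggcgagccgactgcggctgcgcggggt
NEK2 (chr1:211675622-211675721, minus strand): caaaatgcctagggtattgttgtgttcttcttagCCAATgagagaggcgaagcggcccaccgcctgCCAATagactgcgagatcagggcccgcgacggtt
In PLK1 the CCAAT word began 73 bases before the start and the CHR word 29 bases before it. In BUB1B the CHR word began 23 bases before the start. A match describes these letters in this window and is not evidence of binding.

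Expression was measured as FPKM, fragments per kilobase of transcript relative to the mapped fragments, and the estimated depth of the libraries lay between 12500000 and 22900000 fragments. Markers of colorectal epithelium were present in part. KRT18, a keratin of simple epithelium, was between 76.2 and 121 FPKM, and CDX2, an intestinal transcription factor, was between 7.48 and 11.6. EPCAM, an epithelial adhesion protein, was between 3.94 and 6.53 FPKM on day 30 and between 0.0922 and 0.867 on day 4. ZEB1, a mesenchymal transcription factor, was between 16.2 and 20.8 on day 30 and between 0.854 and 5.32 on day 4. The other mesenchymal marker, VIM, overlapped between the days, at 4.04 to 4.82 and 2.17 to 5.88 FPKM. So did the keratin KRT8, at 6.58 to 19.0 and 9.96 to 15.9. The part of EPCAM and ZEB1 in the differences between days was not tested. CDH1, KRT19, KRT20 and VIL1 were below 1 in all 8 libraries. The 5 fibroblast markers summed to at most 0.0270 FPKM and the 3 endothelial markers to at most 0.0152, whereas the 5 leukocyte markers reached 1.41 through CD79A.

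The libraries differed in a way that followed base composition. Across 10184 expressed genes with a known transcript, the log2 ratio of NCD38 to DMSO on day 4 had a Spearman correlation of 0.59 with transcript GC content, and that of NCD38-β2PIPP to DMSO on day 4 one of -0.69. On day 30 the values were -0.18 for NCD38, -0.52 for NCD38-β2P4 and -0.03 for NCD38-β2PIPP. The 10 genes ranged from 36.4% GC (TTK) to 57.1% (PLK1) around a median of 49.6% for expressed genes, and 8 of them were below that median. The median ratio among expressed genes of like GC content (20 bins of 509 or 510 genes) is therefore given beside the ratios of the 10 genes, and the part of GC content in them was not tested.

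**Figure D1:**
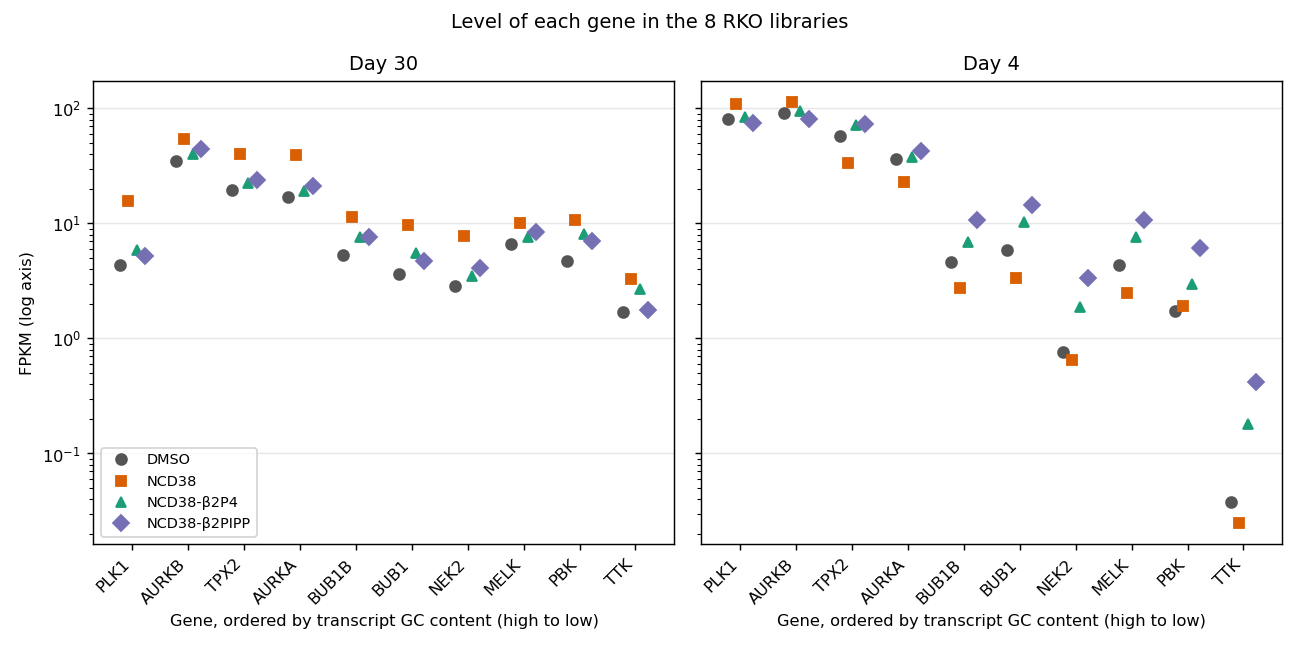
FPKM on a log axis of each of the 10 genes in the 4 libraries of day 30 (left) and of day 4 (right), genes ordered by transcript GC content from PLK1 (57.1%) to TTK (36.4%), 1 point per library. NCD38 was the highest of the day 30 libraries for all 10 genes, and PLK1 was at most 15.8 FPKM on day 30 and at least 74.6 on day 4.

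The levels spanned a wide range, and their order was close to the same in all libraries of a day. On day 30 AURKB was highest in all 4 libraries (34.5 to 54.3 FPKM), followed by TPX2 (19.4 to 40.2) and AURKA (17.0 to 39.1), and TTK was lowest (1.70 to 3.28). BUB1 and NEK2 came just before TTK, BUB1B was the fifth in all 4 libraries, and PLK1, MELK and PBK did not keep 1 place. On day 4 AURKB, PLK1, TPX2 and AURKA led in that order in all 4 libraries and NEK2 and TTK came last.

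On day 30 each of the 10 genes was higher with NCD38 than in the other 3 libraries, by 1.52-fold to 3.65-fold over DMSO. Among all expressed genes, 36.4% had NCD38 as the highest of the day 30 libraries. The log2 ratio of FPKM plus 1 was at least that of a 1.5-fold change for 9 of 10 genes, against 4.0% of expressed genes. All counts of genes past 1.5-fold or 2-fold are on this scale, with 1 added to both FPKM values, and fewer genes of low FPKM reach them than on the plain ratio. The median log2 ratio was 1.02 over the 10 genes and 0.06 over all expressed genes. These ratios compare 1 library with 1 and have no replicate check. The intervals given with them are exact 95% intervals of a ratio of estimated fragment counts, and cover counting error only.

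PLK1, the polo-like kinase of mitotic entry, spans chr16:23690210-23701688 on GRCh37 with 10 exons. On day 30 it was at 4.33 FPKM with DMSO and 15.8 with NCD38, against 5.83 with NCD38-β2P4 and 5.22 with NCD38-β2PIPP. NCD38 stood apart, at 3.65-fold the DMSO level (counting interval 3.07 to 4.35), the largest ratio of the 10. Expressed genes of like GC content had a median log2 ratio of 0.02, against 1.66 for PLK1. NCD38 exceeded NCD38-β2P4 2.71-fold (2.27 to 3.25) and NCD38-β2PIPP 3.02-fold (2.61 to 3.52).

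AURKA and its activator TPX2 both lie on chromosome 20, at chr20:54944446-54967271 (9 exons) and chr20:30327093-30389603 (18 exons). On day 30 AURKA was at 17.0 FPKM with DMSO and 39.1 with NCD38, against 19.0 with NCD38-β2P4 and 21.2 with NCD38-β2PIPP. TPX2 was at 19.4, 40.2, 22.4 and 23.8 FPKM in the same order. Enzyme and activator thus stood at similar multiples of DMSO with NCD38, 2.30-fold (2.09 to 2.54) and 2.07-fold (1.93 to 2.22). With the conjugates neither exceeded 1.25-fold, and the interval of AURKA with NCD38-β2P4 included 1 (0.992 to 1.26).

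AURKB, at chr17:8108052-8113893 with 9 exons, was the most abundant of the 10 and among the least different. Its day 30 levels were 34.5 FPKM with DMSO and 54.3 with NCD38, against 40.03 with NCD38-β2P4 and 44.2 with NCD38-β2PIPP. The ratio of NCD38 to DMSO was 1.57 (1.44 to 1.72), those of the conjugates 1.16 (1.04 to 1.29) and 1.28 (1.17 to 1.40).

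The checkpoint kinases were all higher with NCD38 on day 30. BUB1, which phosphorylates histone H2A at the kinetochore (chr2:111395105-111435640, 25 exons), was at 3.67 FPKM with DMSO and 9.78 with NCD38, against 5.50 with NCD38-β2P4 and 4.76 with NCD38-β2PIPP. BUB1B, a part of the complex that inhibits the anaphase promoting complex (chr15:40453270-40513324, 23 exons), was at 5.34, 11.3, 7.57 and 7.62 FPKM. TTK, which starts checkpoint signalling (chr6:80714366-80752244, 22 exons), was at 1.70, 3.28, 2.72 and 1.76 FPKM. The ratios of NCD38 to DMSO were 2.67 for BUB1, 2.12 for BUB1B and 1.94 for TTK, and none of the 3 intervals included 1. TTK with NCD38-β2PIPP was within counting error of DMSO (1.04-fold, 0.790 to 1.39).

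NEK2, a kinase that separates centrosomes (chr1:211836114-211848963, 8 exons), was at 2.86 FPKM with DMSO on day 30 and 7.71 with NCD38, against 3.51 with NCD38-β2P4 and 4.06 with NCD38-β2PIPP. MELK, a cell cycle regulated relative of AMPK (chr9:36572892-36677679, 18 exons), was at 6.66, 10.1, 7.55 and 8.48 FPKM. PBK, a mitotic kinase of the MAP kinase kinase family on chromosome 8, was at 4.75, 10.7, 8.07 and 6.97 FPKM. NEK2 was 2.69-fold higher with NCD38 than with DMSO (2.16 to 3.39) and PBK 2.26-fold (1.87 to 2.75), whereas MELK, at 1.52-fold (1.31 to 1.77), was the one gene under the 1.5-fold limit after adding 1 to its FPKM.

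The conjugates gave smaller differences in the same direction on day 30. DMSO was the lowest of the 4 libraries for all 10 genes, as it was for 22.9% of expressed genes. With NCD38-β2P4 the median log2 ratio of the 10 genes was 0.29, 7 of the 10 counting intervals lay above 1, and PBK alone reached 1.5-fold after adding 1, against 1.43% of expressed genes. The plain ratio of TTK was 1.60 (1.20 to 2.16). With NCD38-β2PIPP the median was 0.31, 8 intervals lay above 1, and no gene reached 1.5-fold after adding 1, against 1.72% of expressed genes. Of all expressed genes, 62.1% were higher than with DMSO with NCD38-β2P4 and 46.2% with NCD38-β2PIPP. The share of expressed genes with an interval above 1 is not given, so the counts of intervals are no result about the 10 genes. Against expressed genes of like GC content, the median of the 10 genes was higher on the log2 scale by 0.91 for NCD38, 0.22 for NCD38-β2P4 and 0.32 for NCD38-β2PIPP.

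On day 4, the earlier collection, the 10 genes did not move as a group with NCD38. TPX2 was at 57.1 FPKM with DMSO and 33.7 with NCD38, against 71.3 with NCD38-β2P4 and 73.2 with NCD38-β2PIPP. AURKA was at 36.6, 22.9, 37.5 and 42.8 FPKM in the same order. BUB1 was at 5.93, 3.37, 10.3 and 14.5 FPKM. In these genes NCD38 was the lowest library of day 4 and NCD38-β2PIPP the highest. NCD38 was lowest for 7 of the 10 genes, against 60.2% of expressed genes, and NCD38-β2PIPP highest for 8 of the 10, against 54.3%. The median log2 ratio to DMSO on day 4 was -0.34 for the 10 genes and -0.21 for all expressed genes with NCD38, and with the libraries rescaled to a common median that of the 10 genes was -0.0081.

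BUB1B was at 4.60 FPKM with DMSO on day 4 and 2.73 with NCD38, against 6.92 with NCD38-β2P4 and 10.8 with NCD38-β2PIPP. MELK followed the same order, at 4.39, 2.50, 7.60 and 10.6 FPKM. AURKA, TPX2, BUB1, BUB1B and MELK were lower with NCD38 than with DMSO by more than counting error, at 0.568 to 0.627 of the DMSO level. These 5 were also the genes at least 1.5-fold lower, where the share among expressed genes was 22.5%. In the GC bins of these 5 genes the median log2 ratios of expressed genes were -0.48 to -0.60, and the 5 genes differed from them by -0.24 to 0.00.

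AURKB and PLK1, the genes of highest GC content, went the other way on day 4. AURKB was at 91.8 FPKM with DMSO and 113 with NCD38, against 94.2 with NCD38-β2P4 and 81.0 with NCD38-β2PIPP. PLK1 was at 81.6, 110, 84.5 and 74.6 FPKM. NCD38 was the highest and NCD38-β2PIPP the lowest library for both. The ratio of NCD38 to DMSO was 1.24 (1.16 to 1.32) for AURKB and 1.35 (1.29 to 1.42) for PLK1, and no gene of the 10 was at least 1.5-fold higher, against 2.1% of expressed genes.

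PBK, NEK2 and TTK were low on day 4. PBK was at 1.73 FPKM with DMSO and 1.90 with NCD38, against 2.95 with NCD38-β2P4 and 6.08 with NCD38-β2PIPP. NEK2 was at 0.765, 0.650, 1.87 and 3.38 FPKM. TTK was at 0.0377, 0.0248, 0.181 and 0.420 FPKM, which corresponds to about 2, 1, 7 and 18 fragments. With NCD38 none of the 3 differed from DMSO beyond counting error, and for TTK the ratio of 0.659 had an interval of 0.0112 to 12.7. With NCD38-β2PIPP, PBK was 3.51-fold (2.57 to 4.86), NEK2 4.42-fold (2.89 to 6.91) and TTK 11.1-fold (2.70 to 100.2) the DMSO level.

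With NCD38-β2P4 on day 4, BUB1, NEK2 and MELK were at least 1.5-fold higher than with DMSO after adding 1, against 7.87% of expressed genes, and none was 1.5-fold lower, against 1.68%. As plain ratios, BUB1B (1.502-fold), PBK (1.70-fold) and TTK (4.802-fold, 0.920 to 47.7) were also at that level. The median log2 ratio was 0.41, and AURKA, AURKB and PLK1 were at 1.03 to 1.04 of the DMSO level with intervals that included 1. With NCD38-β2PIPP, BUB1, BUB1B, NEK2, MELK and PBK were at least 2-fold higher after adding 1, so that 5 of 10 passed the 1.5-fold limit against 27.1% of expressed genes. None was 1.5-fold lower, against 1.91%. The median was 0.76 for the 10 genes and 0.20 after subtracting the median of genes of like GC content.

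The 3 pairs of compounds at 2 μM can be set side by side within each day. On day 30 all 10 genes were higher with NCD38 than with either conjugate, with a median log2 ratio of 0.63 over NCD38-β2P4 and 0.68 over NCD38-β2PIPP. Of all expressed genes, 47.2% and 59.6% were higher with NCD38 on that day, with medians of -0.01 and 0.07. The day 30 medians of the 10 genes were 0.70 and 0.56 after subtracting the median of genes of like GC content. NCD38-β2P4 and NCD38-β2PIPP, which differ by the imidazole, were closer to each other, with log2 ratios between -0.17 and 0.43. Of these, TTK was higher with NCD38-β2P4 (1.54-fold, 1.17 to 2.02) and AURKB lower (0.905-fold, 0.820 to 0.996) beyond counting error. On day 4 the order was different, and the 8 genes other than AURKB and PLK1 were lower with NCD38 than with either conjugate. The day 4 median log2 ratios over all 10 were -0.74 and -1.19. Among all expressed genes the medians were -0.30 and -0.45, and 32.1% and 32.6% were higher with NCD38. After subtracting the median of genes of like GC content, the medians of the 10 genes were 0.09 and -0.17.

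Over both days together, no gene passed the test in any inhibitor contrast. limma was fitted to log2(FPKM + 1) of all 10865 expressed genes with terms for day and treatment, which left 3 residual degrees of freedom and treats a response that differs between days as error. For the mean of 3 inhibitors against DMSO, 10 of 10 estimates were positive (0.20 to 0.69, median 0.40), 0 of 10 had an adjusted p under 0.05, and 0 had an unadjusted p under 0.05. In that contrast the median estimate of all expressed genes was 0.03, and 0.0276% of them were called. The share of positive estimates among all expressed genes is not given for any contrast, so counts of positive estimates are no result about the 10 genes. PBK had the largest estimate, 0.69 with a 95% interval of -0.19 to 1.58. For NCD38 against DMSO, 0 of 10 were called and 1 had an unadjusted p under 0.05, against 0.0368% of expressed genes called and 1.12% at an unadjusted p under 0.05. That gene was PLK1, with an estimate of 1.04 (0.23 to 1.86), an unadjusted p of 0.0209 and an adjusted p of 1.0 in limma. It was higher with NCD38 on both days.

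NCD38-β2P4 and NCD38-β2PIPP against DMSO each gave 0 of 10 calls in limma and 0 at an unadjusted p under 0.05, with 0.0184% of expressed genes called in each contrast. All 20 estimates were positive, but they share the same DMSO libraries, and their 95% intervals reached from 0.51 to 1.62 on either side of the estimate. The medians over all expressed genes were also positive, at 0.08 for NCD38-β2P4 and 0.10 for NCD38-β2PIPP. The pairs of compounds were called for 0 of 10 genes each by limma, where 0.0092%, 0.0184% and 0.0276% of expressed genes were called for NCD38 against NCD38-β2P4, NCD38 against NCD38-β2PIPP and NCD38-β2P4 against NCD38-β2PIPP. At an unadjusted p under 0.05, the 3 contrasts gave 1, 1 and 0 genes, against 3.12%, 5.86% and 0.295% of expressed genes. PLK1 was that gene in both, higher with NCD38 than with NCD38-β2P4 by 0.84 (0.03 to 1.65, adjusted p = 0.709) and than with NCD38-β2PIPP by 0.99 (0.18 to 1.81, adjusted p = 0.526) on the log2 scale. For the conjugates against each other, the interval for BUB1 ran from -1.76 to 1.48 and that for AURKB from -0.47 to 0.55, so that sizeable differences in either direction remained possible.

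The larger differences were between the days. On day 30 against day 4, with treatment as a term, limma called 3 of the 10 genes lower, against 31.7% of expressed genes, and 3 higher, against 30.2%. PLK1 was lower on day 30 by 3.48 on the log2 scale (95% interval -4.06 to -2.91, adjusted p = 0.000585), with adjusted p from 4.5e-05 to 0.0115 over 17 alternatives. AURKB was lower by 1.13 (-1.49 to -0.77, adjusted p = 0.0019), and it too was called in all 17 alternatives. Both were lower in 4 of 4 treatments. Leaving out either library of a treatment gave the same day estimates, so fewer than 17 of the alternatives are distinct. In DMSO alone, PLK1 was at 81.6 FPKM on day 4 and 4.33 on day 30, an 18.9-fold difference (16.1 to 22.1), and AURKB differed 2.66-fold (2.45 to 2.89). Among expressed genes of like GC content, the median log2 ratio of day 30 to day 4 in DMSO was -0.73 for PLK1 and -0.66 for AURKB, against their own -3.95 and -1.38. After subtraction of the GC trend the estimate was -2.77 for PLK1 (adjusted p = 0.00042) and -0.50 for AURKB (adjusted p = 0.0140).

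TPX2 was lower on day 30 by 1.12 (-2.02 to -0.21, adjusted p = 0.0403), but higher with NCD38, where it was at 40.2 FPKM on day 30 and 33.7 on day 4. It was lower in 3 of 4 treatments and was called in 8 of 17 alternatives. AURKA had the same pattern, with 0.465 to 0.506 of the day 4 level in DMSO and the conjugates and 1.70-fold in NCD38, and was not called (estimate -0.56, adjusted p = 0.209). Without an NCD38 library the adjusted p of AURKA was 0.00272 and that of TPX2 0.00186, and BUB1 was then called lower too (adjusted p = 0.0173). Without a DMSO library the adjusted p of TPX2 was 0.151, without an NCD38-β2P4 library 0.149 and without an NCD38-β2PIPP library 0.120.

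TTK, PBK and NEK2 were higher on day 30. TTK differed by 1.51 (0.99 to 2.04, adjusted p = 0.00241), PBK by 1.11 (0.35 to 1.88, adjusted p = 0.0240) and NEK2 by 1.10 (0.16 to 2.03, adjusted p = 0.0477), and each was higher in 4 of 4 treatments. TTK was tested because of its day 30 values, which alone brought its mean FPKM to 1, so its call supports nothing by itself. These 3 were among the 4 genes of lowest GC content, at 36.4%, 37.2% and 41.8%. In DMSO the genes of like GC content had a median log2 ratio of 1.62 for TTK and PBK and 0.98 for NEK2, against 1.38, 1.07 and 1.13 for the genes themselves. With the GC trend subtracted, the estimates were -0.07 for TTK (adjusted p = 0.581), -0.47 for PBK (adjusted p = 0.0376) and 0.16 for NEK2 (adjusted p = 0.474), so that no call in the upward direction was left and PBK was called lower. With a pseudocount of 0.1 as well, chosen after seeing the data, TTK was called higher (0.94, 0.49 to 1.40, adjusted p = 0.00869) and PBK lower (-1.10, adjusted p = 0.00172). The adjusted p over 16 or 17 alternatives ranged from 0.000151 to 0.581 for TTK, from 0.00172 to 0.0910 for PBK and from 0.0161 to 0.474 for NEK2. With a library of DMSO or of NCD38-β2P4 left out, PBK (0.0882 to 0.0910) and NEK2 (0.0936 to 0.144) were no longer called.

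BUB1, BUB1B and MELK had no called difference between days. BUB1 was lower on day 30 with DMSO and the conjugates, at 0.327 to 0.619 of the day 4 level, and 2.91-fold higher with NCD38. BUB1B was 4.14-fold higher on day 30 with NCD38 (3.44 to 5.02) and MELK 4.04-fold (3.18 to 5.18), while in the DMSO library BUB1B differed 1.16-fold and MELK 1.52-fold. With the GC trend subtracted, BUB1 (-1.32, adjusted p = 0.00652), MELK (-0.64, adjusted p = 0.0177) and AURKA (-0.96, adjusted p = 0.00887) were called lower on day 30.

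**Figure D2:**
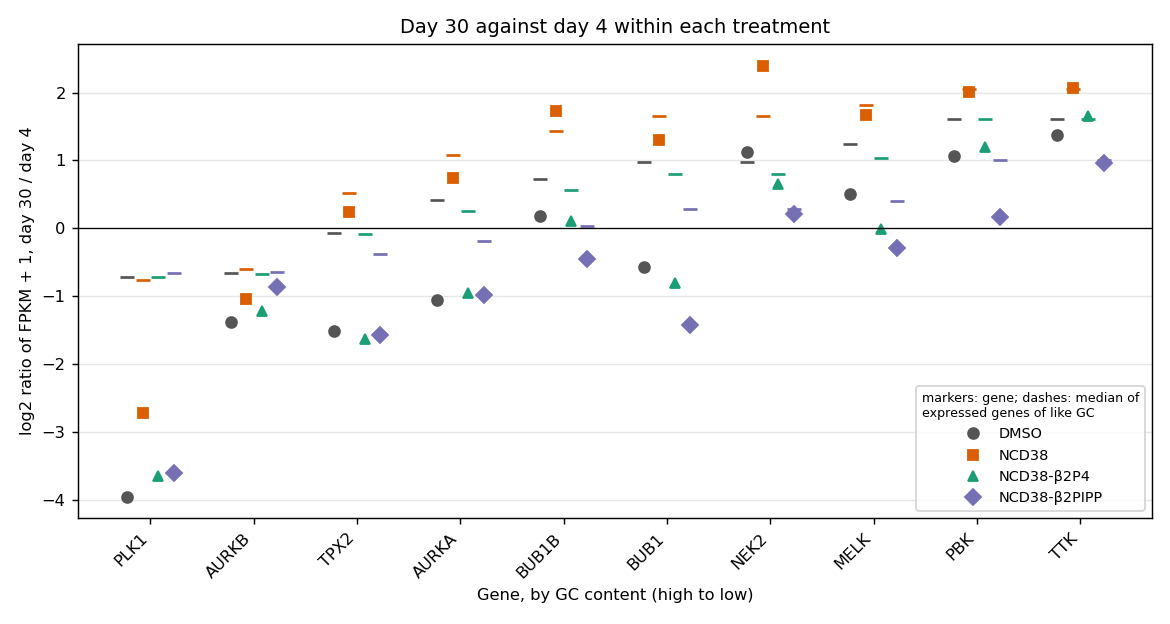
Log2 ratio of FPKM plus 1 between day 30 and day 4 for each gene within each of the 4 treatments (markers), with a dash of the same colour at the median ratio of expressed genes of like GC content, genes ordered from high to low GC. The dashes climb from left to right, from -0.76 to 2.06 with NCD38, and PLK1 lies far under its dashes in all 4 treatments.

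The other genes of the mitotic machinery help to place these values. Of 17 partners of the kinases, 14 were expressed, and with NCD38 on day 30 13 of them were higher than with DMSO and 6 at least 1.5-fold higher after adding 1 (median log2 ratio 0.54). Among all expressed genes, 59.0% were higher and 4.0% at least 1.5-fold higher (median 0.06). CDCA8 and BIRC5, subunits of the chromosomal passenger complex beside AURKB, were at 15.9 and 20.01 FPKM with NCD38 and at 6.85 and 9.65 with DMSO, and INCENP, the scaffold of that complex, at 5.17 and 2.86. BORA, which helps AURKA to activate PLK1, was at 5.36 with NCD38 and 3.48 with DMSO. The checkpoint proteins MAD2L1 and BUB3 differed less, at 15.4 against 10.5 FPKM and 126 against 92.2. HMMR, a spindle protein, was not among the expressed genes and did not exceed 0.710 FPKM.

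The other kinases of mitotic entry differed less on day 30 with NCD38. Of the 11 expressed, 10 were higher than with DMSO and 1, CDK1, was at least 1.5-fold higher after adding 1 (median 0.27). The shares of all expressed genes were 59.0% and 4.0%. CDK1, the kinase that PLK1 and AURKA help to activate, was at 24.3 FPKM with NCD38 and 14.9 with DMSO, against 21.1 with NCD38-β2P4 and 21.8 with NCD38-β2PIPP. WEE1 and PKMYT1, its inhibitory kinases, were at 4.35 against 3.05 and 14.9 against 11.05, and PLK4, the kinase of centriole duplication, at 4.31 against 3.41 FPKM. Of 5 expressed relatives that act in interphase none reached 1.5-fold after adding 1, against 4.0% of all expressed genes. PLK3 was at 4.21 FPKM with NCD38 and 5.00 with DMSO. PLK2 did not exceed 0.172 FPKM in any library.

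Of 12 phosphatase genes that oppose these kinases, 0 reached 1.5-fold with NCD38 on day 30 after adding 1 (median 0.31), and of 14 S-phase genes 0 did so (median -0.07). Among all expressed genes 4.0% did so, and a count of 0 in lists this short does not set them apart. Among 11 expressed genes for the transcription of the G2/M programme, 2 reached 1.5-fold (median 0.11). FOXM1, an activator of mitotic genes, was at 19.0 FPKM with NCD38 and 10.9 with DMSO, and MYBL2, which acts with it, at 8.06 and 7.18. KDM1A, the target of NCD38, was at 46.1 and 42.0 FPKM. MKI67, a marker of dividing cells, was at 13.1 FPKM with NCD38 and 4.88 with DMSO, against 6.21 with NCD38-β2P4 and 7.19 with NCD38-β2PIPP.

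Between days, limma called 4 of the 14 partners higher and 6 lower on day 30, and 4 higher and 3 lower of the 11 other kinases of mitotic entry, where 30.2% of all expressed genes were called higher and 31.7% lower. The passenger complex followed AURKB, with INCENP, BIRC5 and CDCA8 lower on day 30 by 1.86 (adjusted p = 0.00265), 2.11 (adjusted p = 0.00128) and 2.02 (adjusted p = 0.00161) in limma, each in 4 of 4 treatments. PKMYT1, FOXM1 and MYBL2 were lower by 1.84, 1.93 and 2.20. CDK1 was higher by 2.97 (adjusted p = 0.00102), from 1.22 FPKM on day 4 to 14.9 on day 30 in DMSO. PLK4 was at 0.273 FPKM on day 4 and 3.41 on day 30 in DMSO, and BORA at 0.349 and 3.48. Both passed the filter on mean FPKM through day 30, so no test is given for them. The counts of genes called higher include BORA among the partners and PLK4 among the kinases, and support nothing for either. PKMYT1, FOXM1 and MYBL2 have transcripts of 55.7% to 67.3% GC, whereas CDK1, PLK4 and BORA have 35.4% to 39.2%.

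The genes whose pattern was most like that of the 10 were sought among 7090 genes that averaged 5 FPKM or more, by Pearson's r over the 8 libraries between day-centred log2(FPKM + 1) and the mean of the 10. The 5 highest were ZSWIM1 (r = 0.98), H2AFV (0.98), CCNB2 (0.97), LOC100507375 (0.96) and KIF20A (0.96). ZSWIM1 varied little within a day, at 3.84 to 4.68 FPKM on day 30 and 8.71 to 9.99 on day 4. LOC100507375 was at 0.374 to 3.48 FPKM on day 30 and 58.6 to 136 on day 4. Neither reached 5 FPKM on day 30, so both met the limit through day 4. CCNB2 encodes a B-type cyclin and KIF20A a kinesin of the spindle midzone. These r values rest on 8 libraries that share depth and GC effects, and only H2AFV was again among the 5 highest without centring by day. Of the 10 genes, 8 had r between 0.86 and 0.97 with their own mean, PLK1 had 0.49 and AURKB 0.19. Each gene is itself part of that mean, which raises its r. PLK1 and AURKB are the genes of highest GC content, and the part of GC content in these values was not tested.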

How the data were processed

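RNA-seq of RKO cells was used from 8 libraries of the 38 samples of the series. The ChIP-seq samples were not used here. The authors aligned stranded mRNA reads with TopHat and deposited FPKM estimated by Cufflinks, whose versions are not given in the sources used here. The submitters' processing notes also list HISAT2 2.2.1.0 and hg19. The 90 entries with a repeated symbol were left out of 25594. The deposited FPKM holds no counts. Fragments were therefore estimated from the FPKM at which single fragments pile up and from GENCODE release 44 transcript lengths on GRCh37, which may differ from the authors' annotation, and they are estimates and not recovered counts. GC content came from the same transcripts, matched for 10184 of 10865 expressed genes (93.7%).

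Log2 ratios of FPKM + 1 were taken against same-day DMSO, and this scale understates the change of low genes. Fold values in the text are ratios of FPKM without the added 1, with exact 95% intervals (Clopper-Pearson) from the estimated fragments. The replicated test was limma 3.58.1 in R 4.3.3, 2-sided, with Benjamini-Hochberg adjustment over all 10865 genes of a contrast. The libraries of 1 treatment on 2 days served as its pair. The study names Student's t-tests. The limma fit was tested on simulated data, and the exact interval of a ratio on simulated counts. The other steps were not tested in this way. The lists, the named genes and the 10 genes were chosen with earlier results of these data known. All 10 genes are described, with partner genes named for their roles, and the 5 genes of highest r. Alternatives changed the pseudocount (0.1 or 0.01), the scaling, GC content, the filter, the DMSO library, the limma settings and the libraries included, and 1 was added after seeing the data. No column of the table was left unused. Promoters are from RefSeq.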

Additional observations from a re-analysis of the deposited data

Results flagged for a closer look

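The difference between NCD38 and DMSO had opposite signs on the 2 days, beyond counting error on each, for 5 genes. Of all expressed genes, 59.0% were higher with NCD38 than with DMSO on day 30 and 31.7% on day 4. The share with opposite signs is not given, so this count is no result about the 10 genes. In these 5 genes the log2 ratio of day 30 minus that of day 4 was 1.81 for AURKA, 1.87 for BUB1, 1.55 for BUB1B, 1.16 for MELK and 1.76 for TPX2. For AURKB with NCD38-β2PIPP the ratios were 0.35 on day 30 and -0.18 on day 4, a difference of 0.53. With 1 library per condition the difference between days was not tested. In the GC bins of the 5 genes, expressed genes had median log2 ratios of 0.06 to 0.14 on day 30 and -0.48 to -0.60 on day 4 with NCD38, and their part in the result was not tested.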

How the results depend on the processing

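The median log2 ratios on day 30 (1.02, 0.29 and 0.31 for NCD38, NCD38-β2P4 and NCD38-β2PIPP) moved by less than the counting half-width under all 5 alternatives. On day 4 they moved further. For NCD38 the main value of -0.34 became -0.0081 with rescaled libraries and 0.10 with the GC trend subtracted. For NCD38-β2P4 the main value of 0.41 became 0.65 and 0.67 with pseudocounts of 0.1 and 0.01, 0.18 with the GC trend subtracted and 0.71 relative to DMSO of day 30. For NCD38-β2PIPP the main value of 0.76 became 1.23 and 1.25 with the smaller pseudocounts, 0.56 with rescaled libraries, 0.20 with the GC trend subtracted and 1.05 relative to DMSO of day 30. With the GC trend subtracted, AURKA with NCD38-β2PIPP on day 4 reversed to -0.32. The cause was not tested.

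When the DMSO library came from the other day, which also changes the day, single genes reversed. On day 30 with NCD38 these were AURKB (-0.75), PLK1 (-2.30) and TPX2 (-0.50). With NCD38-β2P4 they were AURKB (-1.18), PLK1 (-3.60), BUB1 (-0.093) and TPX2 (-1.31). With NCD38-β2PIPP they were AURKA (-0.76), AURKB (-1.04), BUB1 (-0.27) and TPX2 (-1.22), and PLK1 went from 0.22, which was within counting error, to -3.73. On day 4 they were AURKA (0.41) and TPX2 (0.77) with NCD38, NEK2 (-0.43) with NCD38-β2P4, and AURKB (1.21) and PLK1 (3.83) with NCD38-β2PIPP. Other ratios changed sign without being counted as reversed. Among them were AURKA with NCD38-β2P4 on day 30, and PBK with NCD38-β2P4 and TTK with NCD38-β2PIPP on day 4.

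In the inhibitor contrasts 0 of 10 genes were called by limma in all 119 alternative fits. In fits that left a treatment with 1 library, that library was assumed to vary like the other groups. For day 30 against day 4, 6 genes were called in the main fit, where 30.2% of expressed genes were called higher and 31.7% lower. Without the filter on low FPKM 3 genes were called. The share of all genes called is not given for the day alternatives, so their counts are no result about the 10 genes. Leaving out 1 library gave 3 to 8 calls, lowest without a DMSO or NCD38-β2P4 library and highest without an NCD38 library. Since the fit pairs the days of a treatment, leaving out a library also removes its partner from the day contrast. Without the replicate block, that is without the term for treatment, 6 genes were called, and the treatments share no replicate numbers. With the GC trend subtracted 7 genes were called, and 8 when the pseudocount was also 0.1, which was chosen after seeing the data. Of 538 values under the alternatives, 416 stayed the same by these limits, 104 moved and 18 reversed. Depth limits TTK on day 4 most, at 1 to 18 estimated fragments.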
